A study of Homo sapiens with 4 samples.

Results

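Peaks of IGF2BP3 binding whose summit lay in a pseudogene exon numbered 249 in replicate 1 and 220 in replicate 2, out of 44622 and 42723 peaks of any kind. They were the peaks of at most 1000 bp whose summit fell in an exon of a GENCODE 44 gene with a type containing the word pseudogene and in no exon of a protein-coding or lncRNA gene. They made up 0.594% and 0.544% of the peaks of that width with a summit in any exon. IGF2BP3 was pulled down with an anti-IGF2BP3 antibody from OE-19, an established line of adenocarcinoma of the esophagogastric junction grown in RPMI1640 medium. The labels of the samples give fixation with UV light, whereas the study's description of RIP names no fixation step. The 2 RIP replicates carried no further treatment or genetic change, and 2 input samples of the same line, whose values were not analysed here, stood beside them. RIP-seq sequences the RNA that comes down with a protein, and a peak is a stretch where that RNA piles up over the local background of the peak caller. The summit is the position of the highest pileup, and the fold enrichment is the pileup over that background at the summit.

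IGF2BP3 is an oncofetal RNA-binding protein that reads m6A-marked mRNAs and stabilises them. A pseudogene is a gene copy that has lost the ability to make the protein of its parent. Processed pseudogenes arose when an mRNA was copied back into the genome, so they lack the introns of the parent. Unprocessed pseudogenes arose by duplication of a stretch of DNA and often keep the introns, while unitary pseudogenes are former single-copy genes whose reading frame decayed, with no working parent in the same genome. The annotation adds "transcribed" where RNA from the locus is known. Because a young copy is almost identical to its parent, a read from the parent mRNA can match the copy as well.

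Of all 15233 annotated pseudogenes, 183 had such a peak in either replicate, a share of 1.20%. The share was 0.995% of the 10146 processed pseudogenes, against 4.30% for transcribed processed ones (22 of 512), 1.19% for unprocessed ones (31 of 2609), 1.98% for transcribed unprocessed ones (19 of 961) and 6.45% for transcribed unitary ones (10 of 155). The remaining types had 0, among them 497 rRNA pseudogenes, 187 immunoglobulin V pseudogenes and 99 unitary pseudogenes without annotated transcription. In replicate 1, 143 pseudogenes carried a peak, in replicate 2, 123 did, and 83 carried one in both, which is 58.0% of the first set and 67.5% of the second. In 68 of the 83, peaks of the replicates overlapped.

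**Figure D1:**
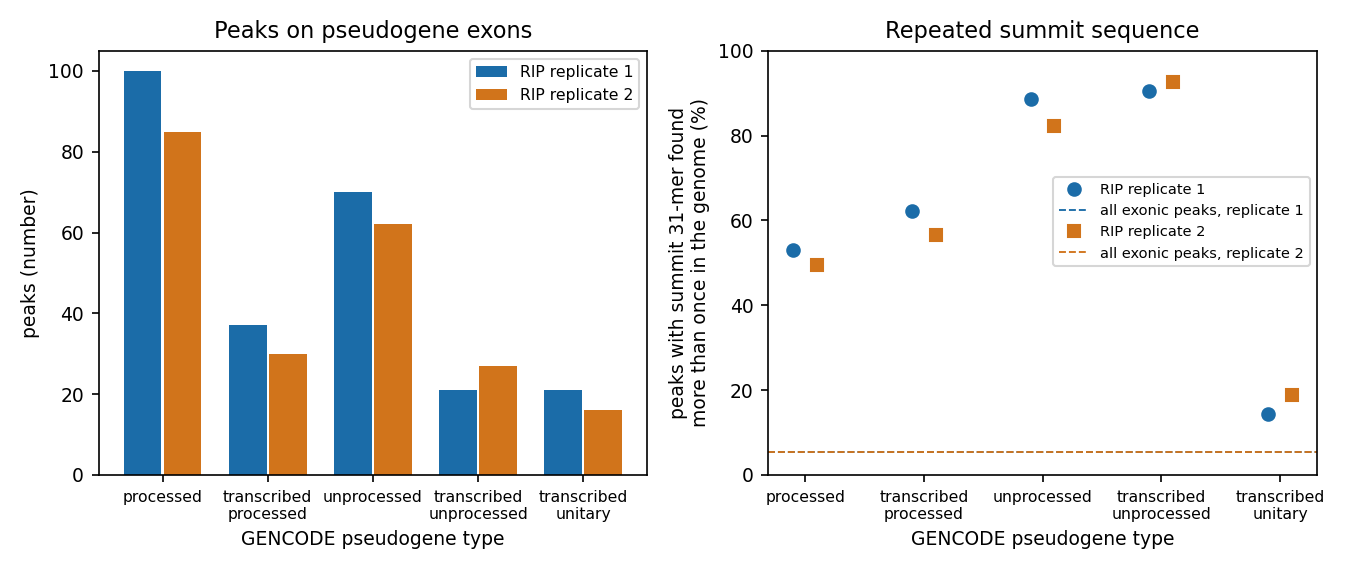
Left, number of peaks on pseudogene exons by GENCODE type, as bars for each RIP replicate. Right, percent of those peaks whose central 31 bases occur more than once in the genome (points), with dashed lines at the same percent for all exonic peaks (5.47% and 5.29%). Processed pseudogenes held 100 and 85 peaks, and the transcribed unitary type was lowest on the right, at 14.3% and 18.8%, still above the dashed lines.

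Most summits lay in sequence that the genome holds more than once. The 31 bases centred on the summit occurred more than once in the genome for 160 of 249 peaks in replicate 1 and 138 of 220 in replicate 2 (63.5% ± 1.08, SD, n = 2). The background over all exonic peaks of at most 1000 bp was 5.47% in replicate 1 and 5.29% in replicate 2. By type, the share ran from 88.6% and 82.3% in unprocessed and 90.5% and 92.6% in transcribed unprocessed pseudogenes, through 53.0% and 49.4% in processed and 62.2% and 56.7% in transcribed processed ones, down to 14.3% and 18.8% in transcribed unitary ones. Coding mRNAs were searched for the same 31 bases too, since the copy of a spliced mRNA can match across an exon junction that the genome interrupts. The summit bases were found nowhere else, neither in the genome nor in a coding mRNA, in 72 peaks of replicate 1 and 71 of replicate 2. In longer windows, of 50 bases on each side of the summit base, 105 and 99 peaks had an exact second copy in the genome or a coding mRNA, and 20 and 17 had no match. How reads that fit several places were treated is not stated in the sources used here, and the part of such reads in these peaks was not tested.

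Sequences at the summits of several peaks on pseudogenes named below are shown as 29 bases on the transcript strand. They show where a read could differ between copy and parent. AFG3L1P was named for its number of peaks and not for its folds. Capitals mark bases that differ between the pair, and a line with no capitals is the same in both. The windows lie at chr11:90282910-90282938 (TUBAP2, + strand), chr1:96448249-96448277 (EEF1A1P11, + strand), chr6:80066099-80066127 (ENSG00000218418, - strand), chr16:89988883-89988911 (AFG3L1P, + strand) and chr17:35916230-35916258 (LRRC37A9P, - strand) of hg38. ENSG00000218418 is a processed copy of ARHGAP21, and its window joins exons 23 and 24 of that mRNA without the intron. LRRC37A9P is added because its summit fell on the same base in both replicates and its sequence occurred once, and it was chosen after its values were seen. Its parent is uncertain, since a second coding mRNA scored nearly as high as LRRC37A3.
TUBAP2 and TUBA1B: ctcttccaccctgagcagctcatcacagg
EEF1A1P11 and EEF1A1: agtggacaagaaggctgctggagctggca
ENSG00000218418 and ARHGAP21: gaagagcctcttacaacagtgcaggagga
AFG3L1P: atTatggaatttgtgaatttcCtgaaGaa
AFG3L2: atCatggaatttgtgaatttcTtgaaAaa
LRRC37A9P: aCCcagcaggaggccAcCgctcAgcctcc
LRRC37A3: aTGcagcaggaggccCcAgctcTgcctcc
Windows of this length could be aligned without gaps, outside chromosomes 8 and Y, for 182 peaks in replicate 1 and 169 in replicate 2. Of these, 130 and 117 were identical to the parent, and the largest number of differences was 13.

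The peaks were somewhat weaker than exonic peaks in general, and the spread within each set was far larger than the gap between the medians. The median fold enrichment was 2.77 in replicate 1 and 2.53 in replicate 2 (2.65 ± 0.171, SD, n = 2), against 2.93 and 2.92 (2.92 ± 0.00543, SD, n = 2) over all exonic peaks of at most 1000 bp. Folds ran from 1.87 to 6.35 in replicate 1 and from 1.83 to 6.92 in replicate 2. The share with a fold of at least 4 was 8.43% in replicate 1 (21 peaks) and 5.45% in replicate 2 (12 peaks), where 13.4% and 12.3% of exonic peaks had one. The median width was 129 bp in replicate 1 and 117 bp in replicate 2. Over exonic peaks it was 113 and 108 bp.

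A q of at most 0.05 was held by 15 peaks in replicate 1 and 11 in replicate 2. That is 6.02% and 5% of pseudogene peaks, against a background of 9.73% and 7.52% of exonic peaks. Overlap with a peak of the other replicate, by at least 1 bp, was found for 114 peaks of replicate 1 (45.8%) and 113 of replicate 2 (51.4%), against 60.1% and 64.1% of exonic peaks. Among 106 overlapping pairs on pseudogene exons, the fold was higher in replicate 1 in 69, and log2 folds had a Pearson's r of 0.55 (Spearman's rank correlation of the folds 0.53). Those points share 2 libraries and several lie on the same pseudogene, so the values are a description across peaks.

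**Figure D2:**
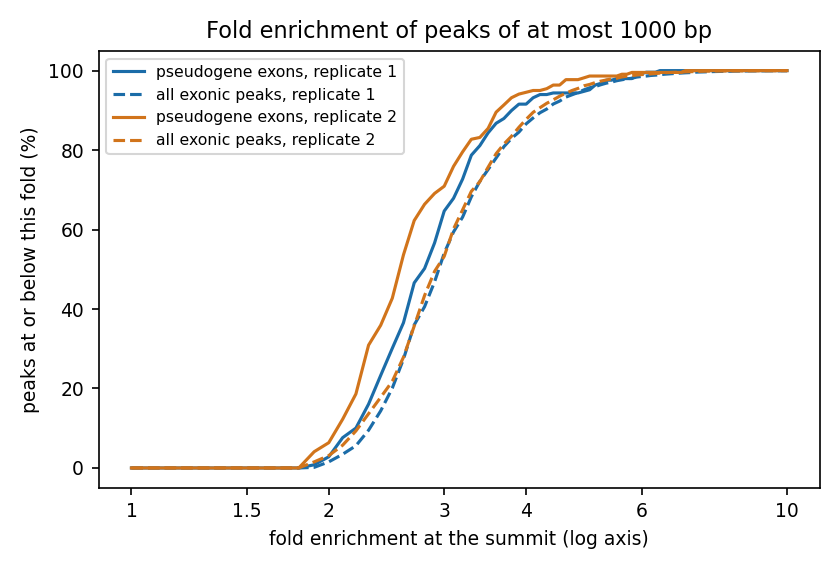
Cumulative percent of peaks at or below each fold enrichment (log axis), for peaks on pseudogene exons (solid) and all exonic peaks of at most 1000 bp (dashed) in each RIP replicate. The solid lines lie to the left of the dashed ones around the median and cross them only in the tails, with medians of 2.77 and 2.53 against 2.93 and 2.92.

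Peaks with summit bases found nowhere else had a lower median fold and a smaller share of overlap between replicates, with no test of either gap. The median fold was 2.50 in replicate 1 and 2.43 in replicate 2 for the 72 and 71 peaks with summit bases found nowhere else, and 2.85 and 2.63 for the other 177 and 149. Overlap between replicates was 38.9% and 43.7% in the former and 48.6% and 55.0% in the latter. Among those that met a q limit of 0.05, 2 of 15 in replicate 1 and 0 of 11 in replicate 2 had such bases, and the 2 lay on HMGA1P8 and PABPC1P4. The gaps in median fold and in overlap had the same direction in both replicates.

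GC content was higher than in coding peaks, and the shares with short motifs were close. The median GC content of the longer window at the summit was 51.5% in both replicates, and 47.5% and 46.5% for peaks in coding exons alone. The letters GGAC, the core of the m6A consensus, occurred on the transcript strand in 73 windows of replicate 1 (29.3%) and 71 of replicate 2 (32.3%), against 30.3% and 30.2% of coding windows. CAT, a short element in earlier descriptions of IGF2BP binding, occurred in 76.7% and 73.6%, against 78.7% and 78.7%. The motifs overlap where GGAC is followed by AT, and the other strand was not searched. A match is a string of letters and not a measured site. No share for random sequence was computed, so the close shares do not show an excess of either motif in either set.

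Parents were assigned by aligning each pseudogene transcript to the canonical mRNA of every coding gene. A parent covering at least 50% of the pseudogene was found for 221 peaks in replicate 1 and 202 in replicate 2 (90.3% ± 2.17, SD, n = 2). In 27 and 26 of these a second coding mRNA scored at least 95% of the best, so that the parent is uncertain, among them POM121B and the copies of RPSA and LRRC37A3. Of 118 pseudogenes with a parent both by sequence and by symbol, the same gene came up for 115. The exceptions were HNRNPA1P10, NUDT4P2 and RPL7P21, of which RPL7P21 was closest to RPL7L1 and not to RPL7. For unitary pseudogenes the match is only the nearest coding relative.

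Over the stretch of the peak itself the copies were almost the same as their parents. The median identity was 99.2% in replicate 1 and 99.3% in replicate 2 (99.3% ± 0.0683, SD, n = 2), and 95 of 208 and 88 of 187 peaks with an aligned stretch were 100% identical. The lowest identities were 65.2% and 66.7%, on a unitary and a processed pseudogene. Median folds by identity were 2.93 and 2.80 at 100%, 2.78 and 2.53 from 98% to under 100%, 2.70 and 2.31 from 90% to under 98%, and 2.59 and 2.43 under 90%. The class with full identity had the highest median in both replicates. Nearly all matched summits fell in the coding sequence of the parent, 202 of 206 and 179 of 184, close to its share of the matched bases (98.6% and 97%).

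Most peaks lay on a pseudogene whose parent carried peaks too. The parent had an exonic peak in the same replicate for 158 of 221 peaks in replicate 1 (71.5%) and 126 of 202 in replicate 2 (62.4%). Counted once each, 70 of 114 parents (61.4%) and 57 of 93 (61.3%) carried a peak. Among all 20046 protein-coding genes 32.6% and 31.6% did, and among the 4090 genes that are parents of any annotated pseudogene, 36.7% and 35.2%. By type, the parent carried a peak for 90.8% and 80.0% of peaks on unprocessed pseudogenes, and for 55.8% and 51.3% of those on processed pseudogenes. By identity, it did for 82.1% and 79.5% of peaks at 100%, and for 22.7% and 20.8% of those under 90%.

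Where both carried peaks, the strongest peak was usually on the parent. In replicate 1 the pseudogene had the higher strongest fold in 20 of 82 pairs of pseudogene and parent, and in replicate 2 in 6 of 64. The medians of the strongest folds were 2.92 on the pseudogene and 3.73 on the parent in replicate 1, and 2.61 and 4.12 in replicate 2. The strongest fold is taken over all peaks of a gene, and a parent could hold many more of them than its copy. Within 100 nt on the parent mRNA, the nearest parent peak was the stronger one in 40 of 67 cases in replicate 1 and 34 of 54 in replicate 2, with median folds of 3.19 and 3.24 against 2.92 and 2.83 on the pseudogene.

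Summits on a copy were next compared with summits on the parent at the matching place of the mRNA. A parent summit lay within 100 nt of the matching position for 67 of 206 matched summits in replicate 1 (32.5%) and 54 of 184 in replicate 2 (29.3%). Of all positions in the same matches, 27.0% and 27.8% were that close to a parent summit. Processed pseudogenes had 23.5% and 21.0%, against 22.5% and 24.8% of positions, above in one replicate and below in the other. Unprocessed and unitary pseudogenes together had 44.8% and 39.3%, against 33.3% and 31.4% of positions. A distance of at most 10 nt was seen for 9 summits in replicate 1 and 12 in replicate 2. The share of positions within that distance was not computed, so these counts have no background beside them.

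Processed copies join the exons of the parent, so a peak there can run across a former junction. The matching parent stretch crossed an exon junction for 52 of 119 processed peaks in replicate 1 (43.7%) and 49 of 100 in replicate 2 (49.0%). Among all stretches of equal length in the same matches, 58.4% and 57.2% crossed one, more than the peaks did. Transcribed processed pseudogenes are counted in this group. At least GTF2IP4 among them, with 9 and 7 peaks, has exons spread apart in the genome, as unprocessed copies do. The part of such loci in the gap was not tested. Unprocessed and unitary copies, whose exons are mostly still separate in the genome, had 6 of 87 (6.90%) and 3 of 84 (3.57%), where 38.7% and 36.6% of equal stretches crossed one.

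The pseudogene with the highest folds among those with overlapping peaks was TUBAP2, a processed copy of TUBA1B, the ubiquitous alpha-tubulin of microtubules. TUBAP2 lies at chr11:90282560-90284172 on the + strand. It carried 2 peaks in each replicate, with folds of 5.07 and 5.99 in replicate 1 and 6.92 and 3.02 in replicate 2, and each overlapped a peak of the other list. The strongest peak was a different one in each replicate, since the overlapping pairs had folds of 5.07 and 6.92 and of 5.99 and 3.02 in replicates 1 and 2. The best q was 1.36e-06 in replicate 1 and 1.90e-06 in replicate 2. Its summit bases occurred 2 to 4 times in the genome. TUBA1B had no exonic peak in either replicate.

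POM121B is an unprocessed copy of POM121, which encodes a transmembrane nucleoporin, within the duplicated flanks of the Williams-Beuren region at chr7:73293497-73301161 (+ strand). It had 4 peaks in replicate 1 with folds of 3.46, 5.89, 6.08 and 4.82, and 6 in replicate 2 with folds of 2.52, 4.33, 4.56, 3.04, 4.54 and 5.72. The best q was 3.73e-05 and 2.82e-05. POM121 carried 16 and 17 peaks with strongest folds of 9.0 and 6.57, above the copy in both replicates. The strongest peak of the copy in replicate 1, of fold 6.08, overlapped one of 4.54 in replicate 2, and that of replicate 2, of fold 5.72, overlapped one of 4.82.

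ARHGEF34P, an unprocessed copy of the guanine nucleotide exchange factor gene ARHGEF5 at chr7:144272445-144286966 (- strand), had 9 peaks in each replicate. Folds ran from 2.90 to 5.81 in replicate 1 and from 2.62 to 4.97 in replicate 2, and 7 peaks of each list overlapped one of the other. The strongest of replicate 1, at 5.81, overlapped a peak of 2.89, and the strongest of replicate 2, at 4.97, one of 3.53. ARHGEF5 had 12 and 14 peaks with strongest folds of 6.90 and 6.42. In replicate 1, 8 of the 9 summits lay within 100 nt of an ARHGEF5 summit. In replicate 2, 8 of 9 did, and the closest lay at 5 nt and 0 nt. ARHGEF5 summits stood close together along the matching stretch, so many positions there would be as near. The share of such positions was not computed for this pair. The copy is 99.7% identical to the parent mRNA, and 17 of its 18 summit sequences were repeated in the genome.

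ENSG00000218418, the processed copy of the GTPase-activating protein gene ARHGAP21 at chr6:80064286-80070199 (- strand), had 6 peaks in replicate 1 and 5 in replicate 2. Folds ran from 2.65 to 5.44 and from 2.26 to 4.56, and 5 of 6 and 5 of 5 overlapped a peak of the other replicate. ARHGAP21 had 21 peaks in each replicate, with strongest folds of 8.12 and 7.74. The strongest peak on the copy in replicate 1 matched a position 862 nt from the nearest ARHGAP21 summit called in that replicate. It overlapped a peak of replicate 2, of fold 3.81, whose summit lay 2 nt from an ARHGAP21 summit of replicate 2. In replicate 1 the closest summit on the copy lay at 1 nt. These pseudogenes, TUBAP2, POM121B, ARHGEF34P and ENSG00000218418, were the 4 with a q of at most 0.05 in both replicates.

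**Figure D3:**
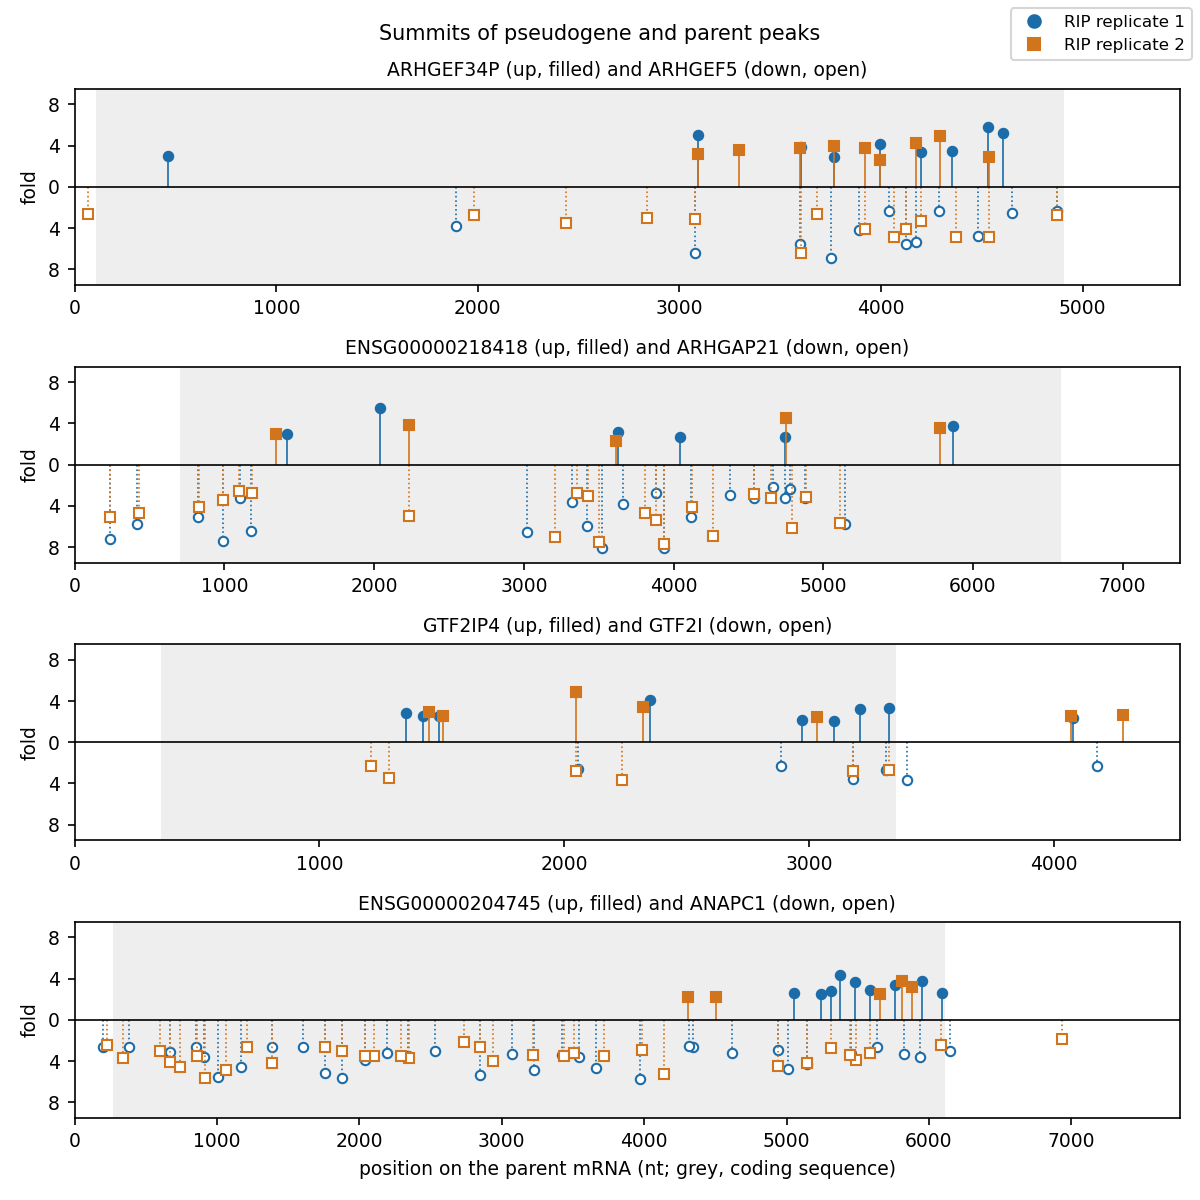
Summits on 4 pseudogenes placed at the matching position of the parent mRNA (filled, upward) and summits on the parent itself (open, downward), with height as fold enrichment and grey as coding sequence. All but 1 of the 18 summits on ARHGEF34P match nt 3090 to 4607 of ARHGEF5, and those on ENSG00000204745 match nt 4306 to 6092 of ANAPC1. The summits on ANAPC1 itself run from nt 198 to 6938, with few past the end of its coding sequence at nt 6108.

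Other pseudogenes with high folds in both replicates were GTF2IP4, BCLAF1P2, PABPC1P4 and the ANAPC1 copy ENSG00000204745. GTF2IP4, a copy of the transcription factor gene GTF2I in the same duplicated part of chromosome 7, had 9 and 7 peaks with strongest folds of 4.06 and 4.85. It is annotated as transcribed processed, although its exons with peaks are spread from position 73175397 to 73207088. Those were above the strongest folds of GTF2I, 3.70 and 3.62, from 6 peaks in each replicate. BCLAF1P2, from the gene of the splicing-associated factor BCLAF1, had 2 peaks in each replicate with strongest folds of 4.06 and 4.07, beside 3.76 and 3.83 on BCLAF1. ENSG00000204745, an unprocessed copy of ANAPC1, a subunit of the anaphase-promoting complex, had 9 and 5 peaks with strongest folds of 4.32 and 3.79, below 5.73 and 5.59 on ANAPC1, which held 33 peaks in each replicate. The strongest peak of GTF2IP4 was a different one in each replicate, and that of replicate 2 overlapped no peak of replicate 1.

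PABPC1P4, a processed copy of the poly(A)-binding protein gene PABPC1, was the strongest with summit bases found nowhere else. It had 1 peak in each replicate, at chr12:63823572-63823715 with a fold of 5.26 in replicate 1 and at chr12:63823602-63823713 with a fold of 3.68 in replicate 2. The q was 0.00671 in the first and 1 in the second. PABPC1 carried 1 peak in each replicate at folds of 1.80 and 1.85, with the matching summits 308 and 320 nt away. The copy was higher than the parent in both replicates, at 4.47 ± 1.12 (SD, n = 2) over replicates.

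**Figure D4:**
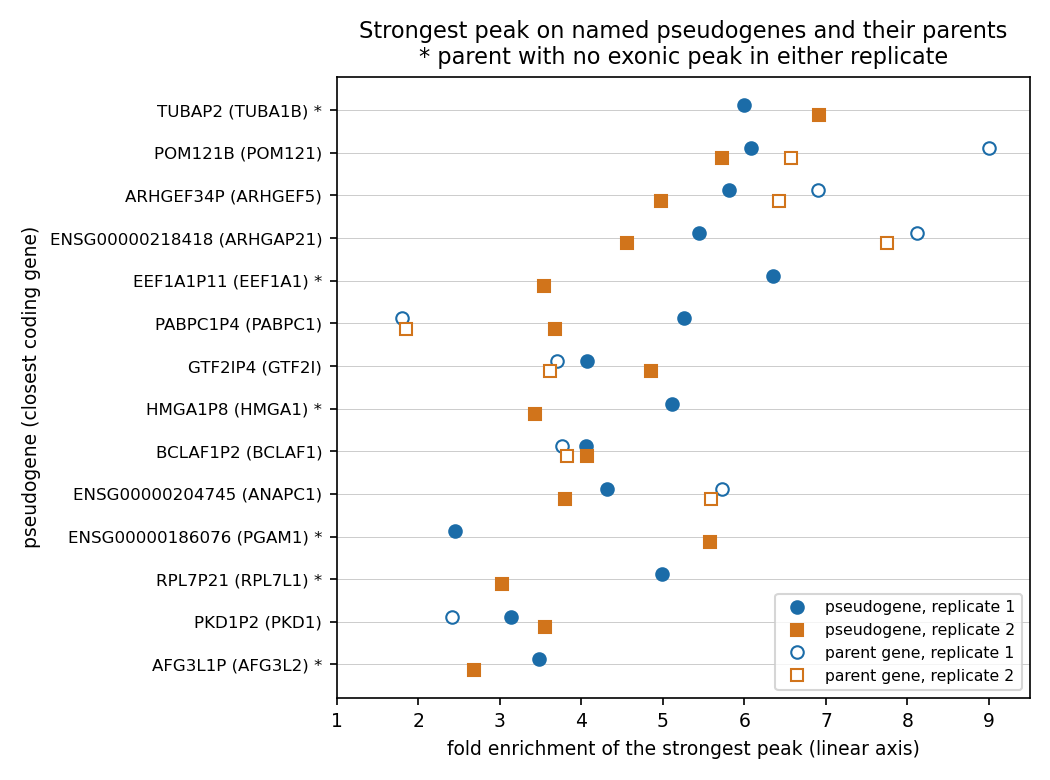
Fold enrichment of the strongest peak on each named pseudogene (filled) and on its parent or nearest coding gene (open), for RIP replicates 1 (circles) and 2 (squares). POM121B, ARHGEF34P, ENSG00000218418 and ENSG00000204745 lie below their parents in both replicates, PABPC1P4, GTF2IP4 and BCLAF1P2 lie above, and a star marks a parent with no exonic peak.

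Some of the highest folds sat on copies whose parent had no peak at all in either replicate. Beside TUBAP2 these were EEF1A1P11, HMGA1P8, ENSG00000186076 and RPL7P21. EEF1A1P11, a processed copy of the elongation factor gene EEF1A1, had a peak of fold 6.35 in replicate 1 (q of 3.73e-05) and 3.54 in replicate 2 (q of 0.108). Its summit bases occurred 13 and 11 times in the genome. HMGA1P8, from the chromatin protein gene HMGA1, had folds of 5.11 and 3.43 (q of 0.00356 and 0.435), and its summit bases were found nowhere else. RPL7P21 had folds of 5.0 and 3.02 (q of 0.000948 and 0.108) and lies within the gene body of NR3C1, the glucocorticoid receptor.

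ENSG00000186076 is a processed copy, 99.9% identical, of the glycolytic enzyme gene PGAM1, at chr12:93640822-93641586 (- strand), and a second coding mRNA scored at least 95% as high. Its strongest peak had a fold of 5.57 in replicate 2, at chr12:93640454-93640958, and its peak in replicate 1 had one of 2.45. In replicate 1 the locus also held a peak of fold 7.5 that was 1062 bp wide, just outside the width limit. The widest peaks just inside the limit were one of 842 bp on LRRC37A9P in replicate 1, with a fold of 2.93, and one of 683 bp on PARGP1 in replicate 2, with a fold of 2.36. The narrowest just outside in replicate 2 was 1093 bp wide, on CYP2T3P, with a fold of 3.38.

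Grouped by what the parent encodes, ribosomal protein pseudogenes were numerous in the genome and few had a peak. Of 2217 annotated pseudogenes with a ribosomal protein parent, 17 had a peak in either replicate (0.767%), against 1.31% of all 12739 pseudogenes with a parent. Peaks whose own transcript model matched a ribosomal protein mRNA numbered 12 in replicate 1 and 8 in replicate 2, with median folds of 2.87 and 2.71. None of the 8 parents in replicate 1 and 7 in replicate 2 had an exonic peak. In the class as a whole, 1 and 2 of 94 coding genes had one (1.06% and 2.13%, beside 32.6% and 31.6% of coding genes in all). RPL41P2 (3.10 and 2.53), RPL13AP26 (2.55 and 3.18) and RPL7P21 were the members with overlapping peaks in both replicates.

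Translation factor copies had a peak in 8 of 179 cases (4.47%). They were copies of EEF1A1, of the initiation factor genes EIF3L, EIF4B and EIF4E, and held 8 peaks in replicate 1 and 3 in replicate 2. Of their parents, 2 of 4 and 1 of 2 carried a peak, EIF3L in both replicates at folds of 4.25 and 4.05. Among all 72 coding genes of the class, 40.3% and 31.9% carried one. EIF3LP2 had folds of 3.53 and 2.43 in overlapping peaks, below EIF3L in both.

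Copies of RNA-binding and splicing genes had a peak in 4 of 296 cases (1.35%), and copies of chaperone genes in 2 of 254 (0.787%). The counts were 3 of 286 (1.05%) for cytoskeletal, 2 of 153 (1.31%) for metabolic enzyme and 2 of 305 (0.656%) for chromatin genes. Over all pseudogenes with a parent the share was 1.31%. The parents in the last 4 groups had no exonic peak in either replicate. Cytoskeletal coding genes carried a peak in 6.78% and 4.24% of 118 cases. The chromatin copies, HMGA1P8 and HMGA1P3 (3.55 and 3.18), both came from HMGA1. All other parents took 187 peaks in replicate 1 and 178 in replicate 2, and there 66 of 92 and 54 of 76 parents carried a peak.

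**Figure D5:**
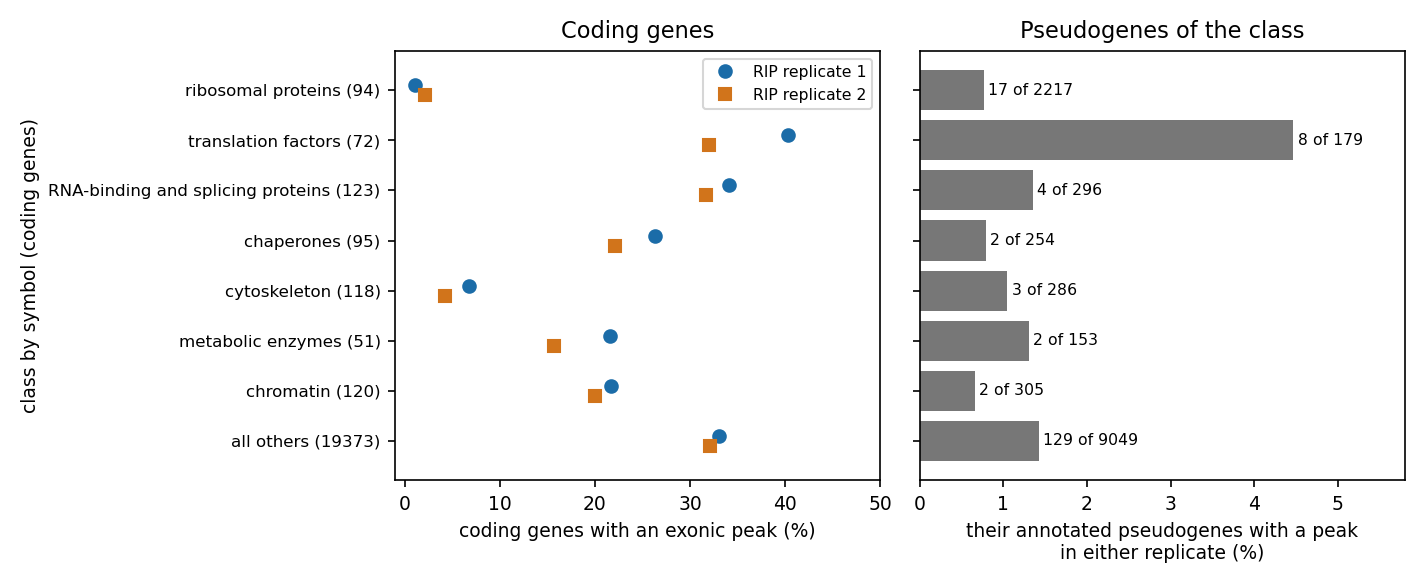
Left, percent of coding genes in each class, by symbol, with an exonic peak in each RIP replicate (points). Right, percent of annotated pseudogenes whose parent is in the class that had a peak in either replicate (bars, with counts). Ribosomal protein genes lie at 1.06% and 2.13% on the left, and translation factor copies reach 4.47% on the right.

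Several parents had more than one copy with a peak. PKD1, the gene of polycystin-1, had 4 of its 6 assigned copies among them, PKD1P2, PKD1P3, PKD1P4 and PKD1P5, all on chromosome 16. Together they carried 14 peaks in replicate 1 and 17 in replicate 2. PKD1 itself had 2 peaks in replicate 1, at a fold of at most 2.41, and 0 in replicate 2. PKD1P2 alone (chr16:16356224-16377507, + strand) had 10 and 9 peaks, more than any other pseudogene in mean number, with strongest folds of 3.13 and 3.56. No PKD1P2 peak had a q of at most 0.05. ENSG00000249839, an unprocessed copy of the inositol pyrophosphate kinase gene PPIP5K1, tied with AFG3L1P in mean number and had 6 and 7 peaks, with strongest folds of 3.20 and 3.8 beside 3.64 and 4.18 on PPIP5K1.

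SMG1, the kinase of nonsense-mediated decay, showed the opposite balance. Its copies SMG1P2, SMG1P4, SMG1P5 and SMG1P6, 4 of 7 assigned, carried 6 and 8 peaks, and SMG1 itself carried 55 and 49. The LRRC37A3 copies LRRC37A4P, LRRC37A6P and LRRC37A9P carried 10 and 9 peaks, beside 2 and 0 on LRRC37A3. A second coding mRNA scored at least 95% as high for all 3, so that this parent is uncertain. AIDA had 3 copies with a peak, all in replicate 2 only, with 4 peaks in all and folds of at most 3.78, while AIDA itself had 9 and 8 peaks. EEF1A1 had 3 of 50 copies with a peak. RPSA, tied with these at 3 of 71, had copies with a peak in replicate 1 only.

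Chromosomes 7 and 16 held 35 and 33 peaks on pseudogene exons in replicate 1 and 33 and 32 in replicate 2. These were 14.1% and 13.3% of the set in replicate 1, where 4.76% and 4.13% of exonic peaks lay on those chromosomes. In replicate 2 they were 15% and 14.5%, beside 4.81% and 4.13%. Counted by pseudogenes, chromosomes 7 and 16 had 13 and 11 with a peak in replicate 1 and 11 and 10 in replicate 2. Chromosome 17 had as many, 13 and 11 in replicates 1 and 2, with 10.0% and 9.55% of the peaks. Single loci weighed heavily, such as ARHGEF34P on chromosome 7 (9 and 9 peaks) and PKD1P2 on chromosome 16 (10 and 9). The share of annotated pseudogenes on each chromosome was not set beside these values. Summits within the body of a coding gene, in an intron by the rule, numbered 29 and 35, mostly on processed pseudogenes (28 and 30).

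Transcribed unitary pseudogenes offered peaks that could mostly be placed, since 3 of 21 and 3 of 16 had repeated summit bases. AFG3L1P, the decayed relative of the mitochondrial protease gene AFG3L2, had 9 peaks in replicate 1 with folds from 2.41 to 3.49 and 4 in replicate 2 with folds from 2.0 to 2.68. Only 4 of the 9 and 1 of the 4 overlapped a peak of the other list, and AFG3L2 had none in either. A further peak in replicate 2, of fold 3.54, was 1152 bp wide and lay outside the width limit. CUTALP had 3 peaks and 1 peak (strongest folds 3.30 and 3.12) with no overlap. CHMP1B2P, whose nearest relative is the ESCRT gene CHMP1B, had 1 and 2 peaks with strongest folds of 3.01 and 2.85. In this type the overlap with the other replicate was 28.6% and 18.8%, the lowest of the 5 types in both replicates, and no peak had a q of at most 0.05.

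Transcribed processed pseudogenes had overlaps of 37.8% and 43.3%, processed ones 45.0% and 58.8%, unprocessed ones 52.9% and 58.1%, and transcribed unprocessed ones 57.1% and 40.7%. Median folds by type lay between 2.41 and 2.92 in replicate 1 and between 2.37 and 2.75 in replicate 2, with transcribed processed pseudogenes lowest in both. Unprocessed ones were highest in replicate 2 and, with transcribed unprocessed ones, in replicate 1.

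The label of the cell line could be read only from called peaks, which are no measure of expression. Of the epithelial markers, CDH1 had 4 and 8 exonic peaks and EPCAM, KRT8, KRT18, KRT19 and ERBB2 had 0. Of the markers of other cell types, PTPRC, VIM and PECAM1 had 0, and COL1A1 had 0 and 5. The lysates are bulk samples, in which fewer cells with a transcript and less of it per cell cannot be told apart.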

How the data were processed

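Per the labels and the study's methods, 2 IGF2BP3 RIP libraries of OE-19 cells were sequenced beside 2 input libraries, and sample titles gave group and replicate. Nothing in the labels says whether the replicates were separate cultures, so the SD may be technical. The authors trimmed with fastp, per their processing notes, which name HISAT2 as aligner, whereas the study's methods name Tophat2. Peaks were called on each sample with MACS2 against hg38. The deposited fold enrichment is a ratio to the caller's background, and the deposited −log10 p, −log10 q and score come from the same caller. The control used, the treatment of multiply mapped reads and read depth are not given in the sources used here, so no counting interval was given. The lists carry no strand and reach a p of 0.01, whereas the methods state default settings. No column was without a sample, and the input samples were not analysed here.

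Summits were placed on GENCODE 44 exons. All coordinates count from 1, and 0 peaks ran past a chromosome end. Pseudogene transcripts were aligned to 19701 canonical coding mRNAs with BLASTN 2.17.0 (word size 15, E value 1e-10, at least 100 nt). In tests on 200 simulated copies each, the parent was found for 199 at a divergence of 2% and 200 at 15%. Those were unbroken stretches of randomly drawn mRNAs with substitutions only, so gaps and rearranged loci were not covered. Copies were sought with 31-mers and with windows of 50 bases on each side. Python 3.11.15, numpy 2.4.6, pandas 2.3.3 and matplotlib 3.10.9 were used.

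Values are given per replicate and as mean ± SD, beside those of all exonic peaks of at most 1000 bp. No test was run, since 2 RIP lists without input lists allow none over samples. Pseudogenes were named by a rule: the 10 with the highest fold (mean of each replicate's strongest peak, which need not be the same peak) among those with overlapping peaks, the 5 with the most peaks, all with a q of at most 0.05 in both replicates, and the 5 with the highest fold whose parent had no peak. The 5 parents with most copies were named too. The members, gene classes and lists were chosen with earlier results of these data known.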

Additional observations from a re-analysis of the deposited data

Results flagged for a closer look

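A further 298 peaks in replicate 1 and 278 in replicate 2 had a summit in a pseudogene exon that was also an exon of a coding or lncRNA gene, and they were not among the peaks described, though those of at most 1000 bp are part of the exonic peaks set beside them. Most of them, 225 and 211, lay in an lncRNA exon and no coding exon. Their median fold was 2.83 and 2.68, the highest 5.97 and 5.04, and 59.4% and 62.2% overlapped a peak of the other replicate. They are listed as signal outside the peaks described, with no input values to set beside them.

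Peaks of over 1000 bp on pseudogene exons numbered 4 in replicate 1 and 5 in replicate 2 and are listed for the same reason. Their folds reached 7.5 and 5.51, above the strongest peak of at most 1000 bp in replicate 1 (6.35) and below it in replicate 2 (6.92), and each overlapped a peak of the other list. KRT8P46, a processed copy of the keratin gene KRT8, held one in each replicate, with folds of 5.59 and 3.49, while KRT8 had no exonic peak in either.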

How the results depend on the processing

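Of 84 values under other settings, 35 moved by less than the spread between the replicates, or for counts by less than 1.5 times, and 49 moved further. Shares and medians without a replicate are among the 35 by arithmetic, since each replicate's value lies within the SD of the mean. They say nothing about how stable the results are. Without one or the other replicate, the number of peaks ranged from 220 to 249, overlap from 45.8% to 51.4%, median fold from 2.53 to 2.77, the share with a parent peak from 62.4% to 71.5%, the share near a parent summit from 29.3% to 32.5%, identity from 99.2% to 99.3% and junction crossing from 28.2% to 28.3%. The number of pseudogenes in both replicates, 83, has no value without a replicate. No paired analysis was possible because the inputs that share replicate numbers with the RIP samples had no values analysed here and no result came from a test.

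The means over replicates were 234.5 peaks, 48.6% overlap, a median fold of 2.65, 66.9% with a parent peak, 30.9% near a parent summit and 28.2% across a junction. With a q of at most 0.05 there were 13 peaks and 4 pseudogenes in both replicates, with 84.2% overlap, a median fold of 4.91, 43.9% near a parent summit, an identity of 100% and 22.4% across a junction. With a −log10 p of at least 5 there were 37.5 peaks and 13 pseudogenes, with 72.7%, 3.64, 41.7%, 100% and 22.7% for the same quantities. With a fold of at least 4 there were 16.5 peaks and 6 pseudogenes, with 79.8%, 4.82, 45.8%, 100% and 17.9%. These limits select strong peaks, so the higher median folds follow from them. The overlap of exonic peaks under the same limits was not set beside these values. The shares of positions near a parent summit were 21.5% and 38.6% with the q limit, 32.9% and 37.0% with the p limit, and 24.3% and 39.0% with the fold limit. Junction crossing was 28.5% with no width limit and 28.0% without exons of any other gene. Overlap fell to 29.7% when 50% of both peaks had to overlap and to 26.8% when summits had to lie within 50 bp.

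With parents by symbol, 25.8% of summits lay near a parent summit, identity was 99.0% and 36.3% of peaks crossed a junction. With matches of at least 90% identity, 73.9% had a parent peak, 35.5% lay near a parent summit and identity, which the limit itself raises, was 100%. Processed pseudogenes alone gave 56.9%, 22.3% and 98.6%, and 46.3% crossed a junction. Parent peaks in both replicates were present for 59.9% of peaks, and parent peaks with a q of at most 0.05 for 29.2%. Within 50 nt of a parent summit lay 16.6%, and within 200 nt 39.5%.

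Chosen after seeing the data, peaks with summit bases found nowhere else numbered 71.5 in the mean. They lay on 46 pseudogenes in replicate 1 and 49 in replicate 2, and 23 pseudogenes had one in both. These peaks had 41.3% overlap, a median fold of 2.47, 42.5% with a parent peak, 11.4% near a parent summit, an identity of 92.3% and 44.3% across a junction. Of the positions in their matches, 9.47% and 15.1% were near a parent summit, against 27.0% and 27.8% for all peaks. Also chosen then, leaving out pseudogenes with a close second coding match gave an identity of 99.2% and 31.7% across a junction. The cause of these shifts was not tested. Depth is unknown, so a pseudogene or parent without a peak is one where none was called.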

Other observations

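Among the processed pseudogenes chosen after their values were seen, MRPL3P1, TMEM30BP1 and WDR45BP1 had overlapping peaks in both replicates with summit bases found nowhere else. None of these peaks had a q of at most 0.05, and the lowest q of each was 0.716, 0.171 and 0.0777. Others fit the same description, such as TOMM40P4 with folds of 2.16 and 2.30. MRPL3P1, a copy of the mitochondrial ribosomal protein gene MRPL3, had folds of 3.53 and 3.09, and its peaks crossed a former exon junction in both replicates. TMEM30BP1, a copy of the lipid flippase subunit gene TMEM30B, had folds of 3.87 and 3.44 and an identity of 86.4% and 86.0% to TMEM30B, which had no exonic peak in either replicate. WDR45BP1 had folds of 3.49 and 2.43, and the autophagy gene WDR45B had 1 peak in each replicate.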
